A study of Mus musculus with 6 samples.

Results

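Axonemal dynein heavy chains are the motor proteins that make sperm tails beat, and their mRNAs are among the longest in the germ line. The mRNAs of 10 of these genes, Dnah1, Dnah2, Dnah3, Dnah6, Dnah7a, Dnah7b, Dnah8, Dnah10, Dnah12 and Dnah17, were followed in mouse sperm and testes. They were chosen by gene symbol, with earlier results of these data known, from 14455 genes with a RefSeq mRNA in at least 1 of the 6 libraries. A RefSeq mRNA is one with a curated transcript model in the NCBI reference collection. Of the 10 genes, 8 had a row in the transcript tables, each with 1 RefSeq mRNA. Dnah3 and Dnah12 had no row in any library. The RefSeq numbers of both lie above the highest number found in the tables, so a level of 0 and a transcript model that was not counted cannot be told apart, and no value is given for either.

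The libraries held total RNA of mice of an inbred strain, given as C57BL/6 in the labels and as C57BL/6J in the study's methods, with no treatment given. The labels give an age of 3 to 5 months, and the methods give a lower range, in weeks. The 4 sperm libraries were made from mature sperm of the caudal epididymis and vas deferens, pooled over mice and treated to lyse somatic cells, and the 2 testes libraries were made from whole testes of these mice. Ribosomal RNA was removed, and strand-specific paired-end libraries were sequenced. By the study's methods each sperm pool came from its own group of mice, and the testes of those mice were arranged into 2 biological replicates. Whether each testes sample was a pool is not stated. P-values thus measure the spread between these samples, not between single animals. Sperm and testes came from the same mice, and the main test took all 6 libraries as independent.

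Each heavy chain carries an ATP-driven motor head that walks on a neighbouring microtubule doublet of the axoneme, the microtubule core of the tail. Outer dynein arms set beat frequency, and in the sperm tail their heavy chains are Dnah8 and Dnah17. Inner dynein arms shape the bend. Dnah2 and Dnah10 form the double-headed inner arm, whereas Dnah1, Dnah3, Dnah6, Dnah7a, Dnah7b and Dnah12 are heavy chains of single-headed inner arms. Mature sperm are thought to transcribe little or nothing, so their RNA is regarded as mostly a remainder of earlier stages in the testis.

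Depth moved with the group. Counts in the tables are estimated fragment counts, and those on RefSeq mRNAs summed to between 33511 and 100027 in sperm and to 322625 and 314273 in testes. Levels are therefore given as a share, in ppm (parts per 1000000 RefSeq mRNA counts of the same library). The smallest share that could be seen, taken as 3 counts, was 70.8, 30.0, 89.5 and 55.2 ppm in sperm replicates 1 to 4 and 9.30 and 9.55 ppm in testes. Of 9 transcripts that mark elongated spermatids and sperm, between 3 and 7 had a count in a sperm library and 9 and 8 in testes. Of all 6949 genes tested below, 4531 had a negative fitted log2 fold change (median -1.15). Of the same genes, 41.4% were lower in every sperm library than in both testes libraries, and 17.5% were called lower. Of the 9 markers, 8 had a negative value (median -2.11) and 6 were lower in every sperm library in this way. Tnp1, a transition protein, was the marker called lower. The exception was Prm2, a protamine that packs sperm DNA, with 1062 to 2392 ppm in sperm and 1441 and 700 ppm in testes. The other protamine, Prm1, had 142, 20.0, 0 and 36.8 ppm in sperm and 381 and 369 ppm in testes. All 5 spermatocyte markers were at 0 in every sperm library, against a summed 96.1 and 98.6 ppm in testes. Of 5 Leydig cell markers, between 0 and 2 had a count in a sperm library, and their summed share was 0, 170, 1194 and 110 ppm in sperm replicates 1 to 4 and 580 and 535 ppm in testes. In sperm replicate 3 this was all Star, with 40 counts. Of 6 Sertoli cell markers between 0 and 3 had a count in a sperm library, with summed shares from 0 to 50.0 ppm. Of 6 epididymis markers at most 1 had a count, with shares from 0 to 303 ppm, and of 4 epithelial markers 1 or 2 had a count, with shares from 73.6 to 269 ppm. The part of such RNA in the heavy chain values was not tested.

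The genes lie on 7 chromosomes of the mouse build GRCm38.p6, and a window from the RefSeq promoter table is shown for 5 genes. The first 3 are copies of 1 gene on chromosome 1, shown to let them be compared. Dnah6 is shown because it shares a 13-letter stretch with those copies, and Dnah8 because it was the only member called different below. Each sequence is from RefSeq, runs 5′ to 3′ along the gene's strand and ends at the start point that the promoter table uses, and capitals mark matches to GTTGCTNAGCAAC, which reads alike on both strands.
Dnah7a, chr1:53706785-53706934, minus strand: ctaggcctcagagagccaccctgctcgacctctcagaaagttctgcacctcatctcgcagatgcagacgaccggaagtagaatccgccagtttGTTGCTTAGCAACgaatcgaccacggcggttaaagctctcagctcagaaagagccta
Dnah7b, chr1:46066703-46066852, plus strand: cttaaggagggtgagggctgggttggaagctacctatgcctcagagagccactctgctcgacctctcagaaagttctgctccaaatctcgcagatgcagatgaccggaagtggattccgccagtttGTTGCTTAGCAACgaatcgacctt
Dnah7c, chr1:46425368-46425517, plus strand: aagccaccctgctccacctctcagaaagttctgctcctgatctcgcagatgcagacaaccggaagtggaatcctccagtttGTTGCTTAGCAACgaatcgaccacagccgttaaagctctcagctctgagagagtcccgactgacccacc
Dnah6, chr6:73221632-73221781, minus strand: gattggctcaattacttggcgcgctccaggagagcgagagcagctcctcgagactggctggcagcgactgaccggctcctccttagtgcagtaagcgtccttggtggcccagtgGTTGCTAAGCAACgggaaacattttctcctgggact
Dnah8, chr17:30626786-30626935, plus strand: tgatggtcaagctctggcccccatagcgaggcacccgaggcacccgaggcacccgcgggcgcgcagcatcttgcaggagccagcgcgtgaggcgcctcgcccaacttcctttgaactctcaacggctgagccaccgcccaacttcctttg

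For Dnah8 that point is the start of the gene as annotated. For Dnah7a, Dnah7b and Dnah6 the annotated gene reaches further upstream, so their windows lie within it, and for Dnah7c the window runs across the annotated start. The 13-letter stretch was noticed by viewing these windows and then searched for on both strands in the 32851 RefSeq promoters, each 250 bases before to 50 after such a point, of which 24 (0.0731%) held it. Because the stretch was read from Dnah6 and the Dnah7 copies, these genes are among the 24 by construction. They are 3 of the 9 members with a promoter sequence, Dnah6, Dnah7a and Dnah7b, and Dnah7c, which is no member. A match is a description of letters and does not show a binding site. Where these promoter windows of the copies align, Dnah7a and Dnah7b were identical at 183 of 207 bases (88.4%), Dnah7a and Dnah7c at 254 of 300 (84.7%), and Dnah7b and Dnah7c at 188 of 231 (81.4%).

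In testes, Dnah8 was the most abundant member. Because a longer mRNA gives more fragments, levels were set against each other as ppm per kilobase of mRNA. Dnah8 had 24.3 ± 0.147 ppm per kb (mean ± SD, n = 2), followed by Dnah17 with 9.46 ± 3.40. Dnah10 came next with 4.67 ± 2.76, then Dnah1 with 3.77 ± 1.48 and Dnah2 with 2.40 ± 0.117. The lowest were Dnah7a with 1.64 ± 0.530, Dnah7b with 1.24 ± 0.647 and Dnah6 with 1.12 ± 0.155. Dnah8 and Dnah17 were separated by more than their spread. Dnah17 and Dnah10 overlapped within their SDs, with 11.9 and 7.05 against 6.62 and 2.72 ppm per kb in testes replicates 1 and 2. Dnah10 and Dnah1 were not separated either, nor were Dnah7a, Dnah7b and Dnah6 among themselves. The outer arm heavy chains of the sperm tail thus ranked above the inner arm members in each testes library, for Dnah17 over Dnah10 within the spread.

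The comparison of sperm with testes asked which of these mRNAs were kept in mature sperm. Dnah8 was the only member called lower in sperm, and no member was called higher. A call required more than a 2-fold difference and a p under 0.05 after Benjamini-Hochberg adjustment, in edgeR's quasi-likelihood test over 6949 genes with at least 10 counts in all. In that test 17.5% of all genes were called lower and 3.83% higher, against 1 and 0 of the 8 members tested, so the members' share of calls was close to the background. Of the 1214 genes called lower, 999 (82.3%) had 0 counts in every sperm library. The adjusted p of 90.0% of these 1214 calls was 0.03 or more. At an unadjusted p under 0.05, 2 members (Dnah8 and Dnah7b) and 30.6% of all genes were lower. All 8 passed the count filter, but Dnah7a, Dnah7b, Dnah8 and Dnah10 had fewer than 10 counts in sperm and passed only through their counts in testes. The same holds for Tnp1 above and for Dnah9, Dnah11, Dnaaf4 and Cfap298 below, all called lower. Lower levels in such bulk samples can come from fewer cells of a type or from less RNA per cell, which cannot be told apart.

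**Figure D1:**
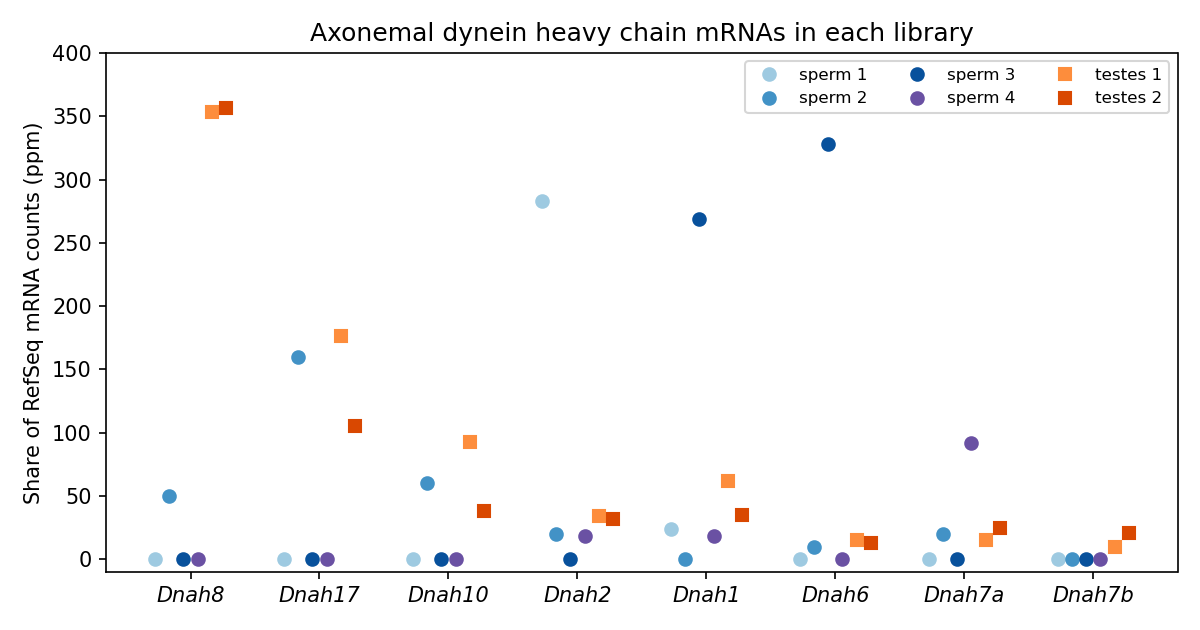
Share of each heavy chain mRNA in each library, in ppm of RefSeq mRNA counts, with 1 point per library (circles for sperm, squares for testes). The testes points of Dnah8 sit at 353 and 356 ppm, above its 50.0 ppm in sperm replicate 2 and 0 in the other sperm libraries, whereas single sperm libraries reach 283 ppm for Dnah2, 269 ppm for Dnah1 and 328 ppm for Dnah6.

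Dnah8 encodes an outer arm heavy chain needed for the sperm tail, and its gene spans chr17:30626935-30875762, with an mRNA of 14583 bases in the tables. It had 114 and 112 counts in the testes libraries, which are shares of 353 and 356 ppm. In sperm it had 0, 5, 0 and 0 counts, or 50.0 ppm in replicate 2. Every sperm library lay below both testes libraries, and the floors of the 3 sperm libraries without a count, from 55.2 to 89.5 ppm, lay well below the testes level. These floors cover counting error only, and a listed RefSeq mRNA had a median of 8, 9 and 5 counts in sperm replicates 1, 3 and 4. A count of 0 there thus bounds the level less tightly than its floor implies. The mean share was 12.5 ± 25.0 ppm (SD, n = 4) in sperm and 355 ± 2.14 ppm (SD, n = 2) in testes. The log2 fold change was -4.35 (SE 1.46), with an adjusted p of 0.0323 in edgeR's quasi-likelihood test. At the mean testes share, 81.7 counts would have been seen over the 4 sperm libraries, against 5 observed. The adjusted p was 0.106 without sperm replicate 2, 0.0691 without sperm replicate 4, and 0.380 and 0.381 without testes replicate 1 or 2. It was 0.245 without a count filter.

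Dnah17, the other outer arm heavy chain (chr11:118021723-118130719), likewise had sperm counts in replicate 2 alone, but its groups overlapped. Its counts were 57 and 33 in testes, or 177 and 105 ppm. In sperm all of its 16 counts were in replicate 2, at 160 ppm, which lies between the testes libraries, and the other sperm libraries had 0. The sperm mean of 40.0 ± 80.0 ppm against 141 ± 50.7 ppm in testes gave a log2 fold change of -1.61 (SE 1.56), which did not pass edgeR's quasi-likelihood test (adjusted p = 0.462). In sperm replicate 2, where both outer arm mRNAs were seen, Dnah8 made up 23.8% of their joint counts (exact 95% binomial interval 8.22 to 47.2%). In testes it made up 66.7% (59.1 to 73.7%) and 77.2% (69.5 to 83.8%). Intervals and floors here cover counting error only, since PCR copies of a fragment are not separate molecules. The outer arm pair summed to 0, 210, 0 and 0 ppm in sperm and to 530 and 461 ppm in testes, without overlap.

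Both double-headed inner arm chains were unevenly spread over the sperm libraries, in different ones. Dnah10 (chr5:124725085-124834308) had 30 and 12 counts in testes, or 93.0 and 38.2 ppm. Its 6 sperm counts were all in replicate 2, at 60.0 ppm, within the range of testes, and the floors of replicates 1 and 3 lay above its mean testes share of 65.6 ± 38.8 ppm. A decrease of Dnah10 was thus not detectable in those libraries, and its log2 fold change of -1.75 (SE 1.59) did not pass edgeR's quasi-likelihood test (adjusted p = 0.430).

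Dnah2 (chr11:69420807-69549108), the partner of Dnah10 in this arm, had 11 and 10 counts in testes, or 34.1 and 31.8 ppm. In sperm it had 12, 2, 0 and 1 counts, or 283, 20.0, 0 and 18.4 ppm. Sperm replicate 1 alone was above testes, where 1.40 counts would have been seen at the testes share. The log2 fold change was 1.24 (SE 1.76) with an adjusted p of 0.634 in edgeR's quasi-likelihood test, and it turned to -1.09 without sperm replicate 1. The study left that library out after a check of correlations between libraries.

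Among the single-headed inner arm chains, Dnah1 and Dnah6 shared a pattern in which sperm replicate 3 held most of the counts. A RefSeq mRNA listed in that library had a median of 9 counts. Dnah1 (chr14:31260375-31325891) is known for its part in assembling a stable sperm tail. It had 20 and 11 counts in testes, or 62.0 and 35.0 ppm, and 1, 0, 9 and 1 counts in sperm, or 23.6, 0, 269 and 18.4 ppm. Only replicate 3 was above testes. The log2 fold change of 0.57 (SE 1.72) did not pass edgeR's quasi-likelihood test (adjusted p = 0.833) and turned to -1.99 without that replicate.

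Dnah6 (chr6:73017603-73222227) had 5 and 4 counts in testes, or 15.5 and 12.7 ppm. It had 0, 1, 11 and 0 counts in sperm, or 0, 10.0, 328 and 0 ppm, and 0.473 counts would have been seen in replicate 3 at the testes share. Its mean share was 84.6 ± 163 ppm in sperm and 14.1 ± 1.96 ppm in testes. The log2 fold change of 2.42 (SE 1.89) did not pass edgeR's quasi-likelihood test (adjusted p = 0.353) and turned to -1.39 without replicate 3. That library had the lowest depth of all and the highest summed shares of Leydig cell (1194 ppm), epididymis (303 ppm) and epithelial (269 ppm) markers. Only 1 Leydig cell marker (Star), 1 epididymis marker and 2 epithelial markers had a count there. Its Sertoli cell, spermatocyte and leukocyte markers summed to 0 ppm. The part of RNA from other cells in the values of Dnah1 and Dnah6 was not tested.

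Dnah7a and Dnah7b on chromosome 1 (53396995-53707301 and 46066071-46373551) are copies of an inner arm chain gene, with a further copy, Dnah7c, beside Dnah7b. Their counts were fractional in testes, as estimated counts can be where transcripts share reads, and the level of each copy is uncertain. Dnah7a had 5.01 and 7.77 counts in testes, or 15.5 and 24.7 ppm, and 0, 2, 0 and 5 counts in sperm, or 0, 20.0, 0 and 92.0 ppm. Sperm replicate 4 alone was above testes, and the log2 fold change of 0.52 (SE 1.44) had an adjusted p of 0.818 in edgeR's quasi-likelihood test. Dnah7b had 3.10 and 6.56 counts in testes, or 9.61 and 20.9 ppm, and 0 in every sperm library. These testes shares lie below the floor of each sperm library. Over the 4 sperm libraries 3.51 counts would have been seen at the mean testes share, so a lower level was not detectable at this depth, and the adjusted p was 0.0767 in edgeR's quasi-likelihood test. Dnah7a, Dnah7b and Dnah7c summed to 0, 40.0, 0 and 92.0 ppm in sperm and to 55.2 and 130 ppm in testes, so the groups overlapped when the copies were taken as one.

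**Figure D2:**
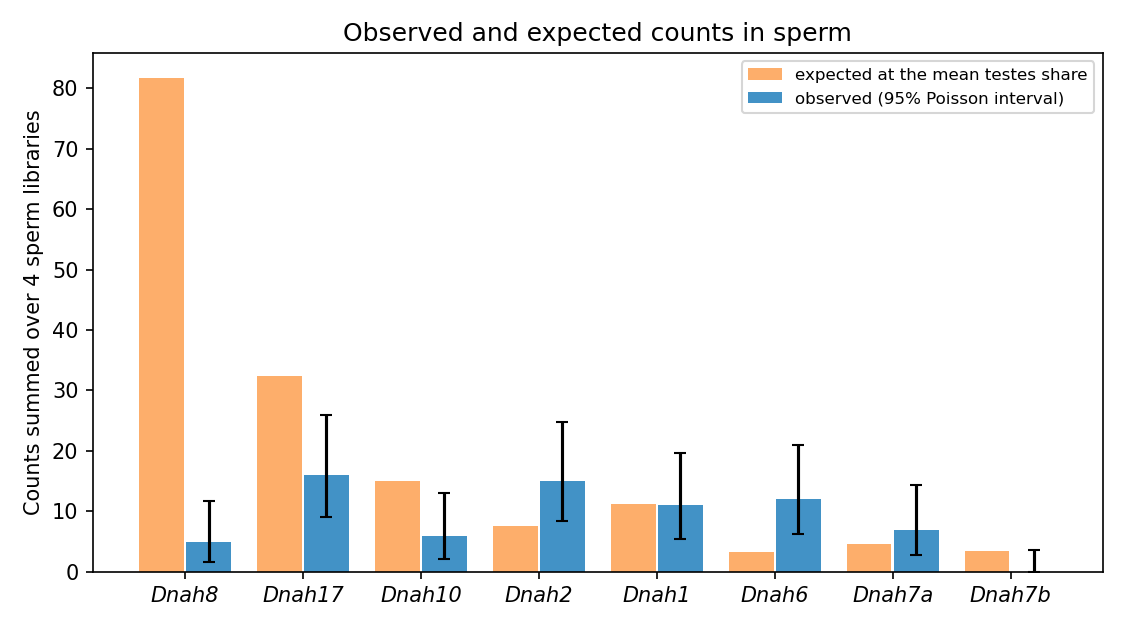
Counts of each heavy chain mRNA summed over the 4 sperm libraries, with exact 95% Poisson intervals, beside the counts that the mean testes share would give at the same depth. Dnah8 has 5 counts against 81.7, Dnah17 has 16 against 32.4, and Dnah2 and Dnah6 have 15 and 12 against 7.59 and 3.25.

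Over the 8 members together, the summed share was 307, 320, 597 and 129 ppm in sperm replicates 1 to 4 and 760 and 625 ppm in testes. The means were 338 ± 193 ppm (SD, n = 4) and 692 ± 95.5 ppm (SD, n = 2), a ratio of 0.488, and the groups did not overlap. Much of that gap was Dnah8. Without it the sums were 307, 270, 597 and 129 ppm in sperm and 406 and 268 ppm in testes, a ratio of 0.965 with overlapping groups. The inner arm members summed to 286 ± 226 ppm in sperm and to 197 ± 46.9 ppm in testes, also overlapping. Without Dnah7a and Dnah7b the ratio was 0.472, and sperm replicate 3 then lay above testes replicate 2.

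The make-up of the counts differed from one sperm library to the next, whereas both testes libraries had the same 5 members in the first 5 places. In testes Dnah8 held 46.5% of 245 and 56.9% of 197 member counts and Dnah17 held 23.3% and 16.8%. In sperm replicate 1, Dnah2 held 12 of 13 counts (92.3%, exact 95% binomial interval 64.0 to 99.8%). In replicate 2, Dnah17 held 16 of 32 (50.0%). In replicate 3, Dnah6 held 55.0% and Dnah1 45.0% of 20 counts, and in replicate 4, Dnah7a held 5 of 7 counts (71.4%, 29.0 to 96.3%). No member thus led in more than 1 sperm library. For comparison, a RefSeq mRNA listed in a sperm library had a median of 8, 3, 9 and 5 counts in replicates 1 to 4. Whether the shifting make-up is particular to the heavy chains was not tested. The outer arm chains held 65.6% of member counts in sperm replicate 2 (46.8 to 81.4%), against 69.8% and 73.6% in testes, and 0 of 13, 0 of 20 and 0 of 7 counts in the other sperm libraries.

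**Figure D3:**
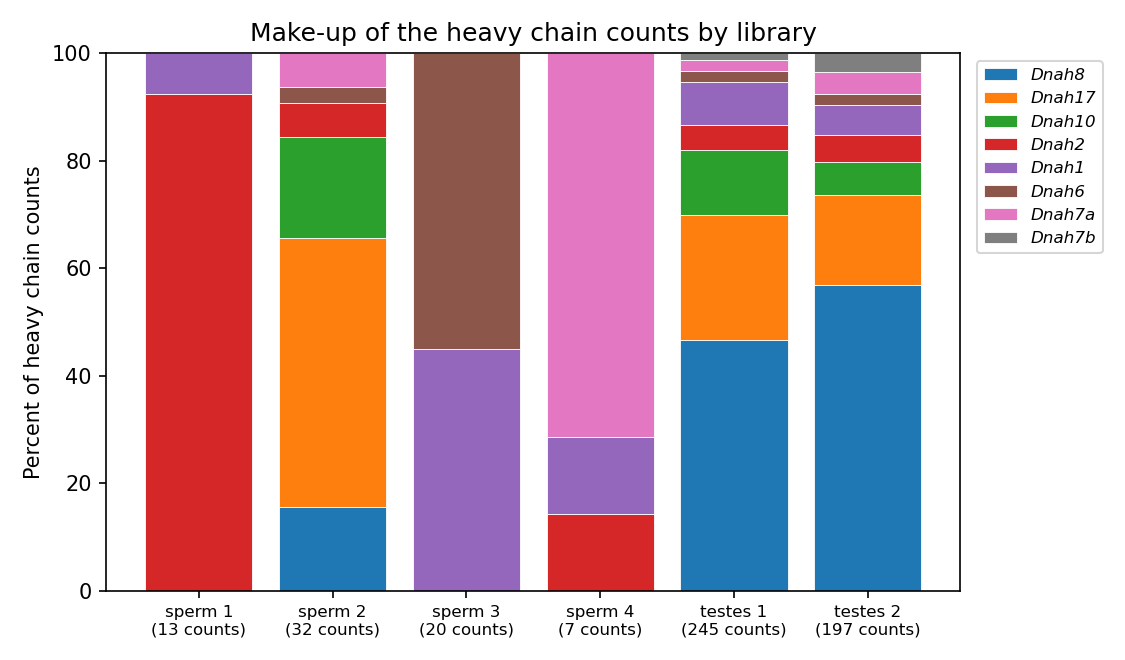
Percent of the heavy chain counts held by each member in each library, with the number of counts under each bar. Dnah8 leads in both testes bars, while Dnah2, Dnah17, Dnah6 and Dnah7a lead in sperm replicates 1, 2, 3 and 4.

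Both testes libraries had counts on all 8 members, against 2, 6, 2 and 3 members in the sperm libraries. When each library was thinned to 33511 RefSeq counts, 5.67 and 5.61 members had a count on average in testes and 1.79, 4.23, 2.0 and 2.23 in sperm. Over all RefSeq genes, thinning likewise left 5976 and 5417 genes in testes and 1978, 4645, 1546 and 3088 in sperm. Of the members, 2 (Dnah7b and Dnah8) were lower in every sperm library than in both testes libraries, where 41.4% of all genes tested were. The median fitted log2 fold change of the members was -0.55 and that of all genes tested -1.15. The sign of the members' median rests on Dnah7b. With genes at 0 in all sperm libraries set to the fold that 3 counts would give, the medians were 0.15 for the members and -0.66 for all genes.

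Of 6 other axonemal heavy chains, 2 of the 3 that could be tested were called lower in sperm, where 17.5% of all genes were. Dnah11, an outer arm chain of motile cilia, had 91 and 176 counts in testes, or 282 and 560 ppm. It had 0, 4, 0 and 4 counts in sperm, or 40.0 ppm in replicate 2 and 73.6 ppm in replicate 4. The groups did not overlap, and the log2 fold change was -3.72 (SE 1.32, adjusted p = 0.0332 in edgeR's quasi-likelihood test). Of the 6 libraries left out in turn, the call of Dnah11 held only without sperm replicate 3, with adjusted p up to 0.585 without testes replicate 2. Its level of 29.9 ± 14.0 ppm per kb in testes was close to that of Dnah8. Dnah9, likewise known from motile cilia, had 16 and 6 counts in testes and 0 in every sperm library, which is at least 2.64-fold lower in sperm when 3 counts are taken over all 4 sperm libraries (adjusted p = 0.0323, edgeR's quasi-likelihood test). The call was lost on leaving out any library but testes replicate 1, with adjusted p from 0.0693 to 0.118, and without that replicate Dnah9 had too few counts to be tested. Dnah7c had 9.69 and 26.67 counts in testes and 2 in sperm replicate 2 alone (log2 fold change -2.87, SE 1.58, adjusted p = 0.171 in the same edgeR test). Dnah5, the outer arm partner of these chains in cilia, had 2 and 0 counts in testes and none in sperm and was not tested, and Dnah14 and Dnhd1 had no row. Of 6 markers of multiciliated cells, 5 and 4 had a count in testes, with summed shares of 164 and 150 ppm. Between 0 and 2 had a count in sperm, with 0 to 55.2 ppm. These markers include Dnah5 and Dnah9 themselves, so the sums are not independent of the values above. The part of such cells in the values of Dnah11 and Dnah9 was not tested.

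Dync1h1, the heavy chain of cytoplasmic dynein, which carries cargo along microtubules in most cells, was seen in every library. It had 7, 36, 15 and 9 counts in sperm, or 165, 360, 448 and 166 ppm, and 183 and 189 counts in testes, or 567 and 601 ppm. Every sperm library lay below both testes libraries, but the log2 fold change of -1.04 (SE 0.89) did not pass edgeR's quasi-likelihood test (adjusted p = 0.399). Dync2h1, the heavy chain of the dynein that drives transport inside cilia, had no row.

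**Figure D4:**
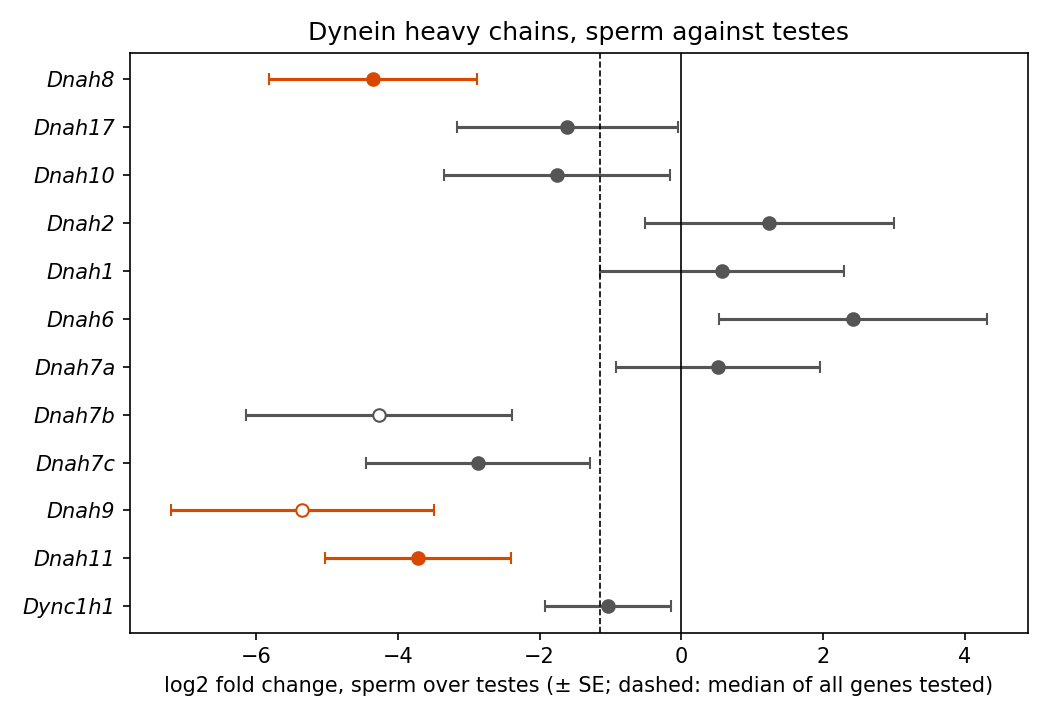
Fitted log2 fold change of sperm over testes for each dynein heavy chain tested, with its SE, and the median of all genes tested (-1.15) as a dashed line. Dnah8, Dnah9 and Dnah11 were called lower (orange), and open symbols mark Dnah7b and Dnah9, which had 0 counts in every sperm library and whose fitted values are no bound.

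The partners of the heavy chains were set against the same background, with 17.5% of all genes called lower and 3.83% higher. Of 12 intermediate and light chain genes, which complete the dynein arms, 10 had a row and 5 could be tested. None was called, and their median fitted log2 fold change was -2.06. The value was negative for Dnali1 (-4.18), Dnal1 and Dynll2 and positive for Dynll1 (0.72) and Dynlt2 (1.52). Dnal1, an outer arm light chain that binds the motor domain, had 8, 10, 0 and 0 counts in sperm and 110.86 and 86.26 in testes (log2 fold change -2.06, SE 1.29, adjusted p = 0.235 in edgeR's quasi-likelihood test). Dynll2, a light chain that dynein shares with other complexes, had 0, 6, 0 and 0 counts in sperm and 7 and 78 in testes (-2.79, SE 1.67, adjusted p = 0.210 in the same edgeR test). The testes libraries themselves differed widely for Dynll2. Of 6 genes of the docking complex, which fixes outer arms to the doublet, 2 could be tested and none was called. Odad4 had 4 and 9 counts in testes and 0 in sperm (adjusted p = 0.0549, edgeR's quasi-likelihood test), and Odad2 had 3 and 6 in testes and was not tested. The other gene tested, Odad3, had 0, 5, 0 and 0 counts in sperm and 6 and 0.99 in testes. Its log2 fold change was 0.73 (SE 1.09, adjusted p = 0.650 in the same edgeR test). The median fitted log2 fold change of Odad4 and Odad3 was -1.95, and 0.04 with Odad4 set to the fold that 3 sperm counts would give.

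Of 16 assembly factors, which fold and join dynein arms in the cytoplasm before they reach the axoneme, 10 could be tested. Of these, 2 were lower and 1 higher, where 17.5% and 3.83% of all genes were. Their median fitted log2 fold change was -0.52, with 7 negative values. The summed share of the 15 factors with a row was nevertheless 2878, 3299, 1641 and 1969 ppm in sperm and 1237 and 1438 ppm in testes. Dnaaf1 lay above both testes libraries in every sperm library, with means of 588 and 212 ppm. It was not called (adjusted p = 0.225 in edgeR's quasi-likelihood test). Zmynd10 rose in sperm. It had 37, 136, 22 and 33 counts in sperm and 19 and 13 in testes, with shares of 874 ± 344 ppm (SD, n = 4) and 50.1 ± 12.4 ppm (SD, n = 2). Every sperm library lay above both testes libraries, where 5.44% of all genes did so, and the log2 fold change was 4.11 (SE 0.96, adjusted p = 0.0016 in edgeR's quasi-likelihood test). The call was lost with TMM factors (adjusted p = 0.0532), without a count filter (0.105), without sperm replicate 2 (0.106) and without testes replicate 2 (0.108). Whether counting used the strand is not given in the sources used here, so antisense or overlapping reads at Zmynd10 cannot be told apart from its mRNA. Dnaaf4 had 10 and 13 counts in testes and 0 in every sperm library, at least 2.78-fold lower. Cfap298 had 7 and 19 counts in testes and 0 in every sperm library, at least 3.15-fold lower, where such bounds cover counting error only. Both had an adjusted p of 0.0323 in edgeR's quasi-likelihood test, and both calls were lost whichever library was left out where the gene could still be tested, with adjusted p from 0.0691 to 0.136.

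Heavy chain mRNAs are very long, so mRNAs of at least 10000 bases were counted with the members left out. Of 157 tested, 36 (22.9%) were called lower and 6 (3.82%) higher, and their median fitted log2 fold change was -1.12. For mRNAs under 2000 bases 335 of 1749 (19.2%) were lower, with a median of -1.56. With genes at 0 in all sperm libraries set to the fold that 3 counts would give, this order turned. The medians were then -0.88 for the long mRNAs and -0.66 for those under 2000 bases. The long mRNAs together held between 20931 and 29511 ppm in sperm and 33054 and 28965 ppm in testes, so the groups overlapped. Of the long mRNAs with the most sperm counts, Fat1, a giant cadherin, rose, with 203, 470, 108 and 198 counts in sperm and 443 and 421 in testes (log2 fold change 1.59, SE 0.41, adjusted p = 0.00539 in edgeR's quasi-likelihood test). The call of Fat1 was lost without sperm replicate 2 (0.106), testes replicate 1 (0.120) or testes replicate 2 (0.108), with TMM factors (0.483), without a count filter (0.112) and with DESeq2 (log2 fold change 0.39, adjusted p = 0.711). Fam160a2 had a log2 fold change of -0.64 (adjusted p = 0.0881) and Srcap of 0.40 (adjusted p = 0.518) in the same edgeR test.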

How the data were processed

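Total RNA of 4 mouse sperm and 2 testes samples, grouped by their titles, was sequenced by the authors on an Illumina HiSeq in a strand-specific protocol after RNase H removal of rRNA. The study's methods name SOAPaligner/SOAP2, and the submitters' processing notes name HISAT and mm10. The counting program is not given in the sources used here. The deposited tables hold, per transcript, the authors' estimated count, FPKM (scaled by the authors for length and depth) and, per the file headers, the transcript length. FPKM was read only to see which rows are listed. Transcripts without a row were set to 0.

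Estimated counts of RefSeq mRNAs were summed per gene and scaled by the library's RefSeq total. Counts were rounded and tested with edgeR 4.0.16 (quasi-likelihood, R 4.3.3) in 4 sperm against 2 testes libraries, with that total as library size and no TMM factors, over genes with at least 10 counts, with Benjamini-Hochberg adjustment. SEs were derived from the F statistic. Calls needed an adjusted p below 0.05 and a fold above 2. Bounds used 3 counts over all sperm libraries and, like the floors, cover counting error only. Thinned values are expectations. Python 3.11.15 and biopython 1.88 were used. Coordinates and promoter sequences are those of RefSeq on GRCm38.p6, matched by accession, for Dnah7b by symbol alone.

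Members and gene lists were chosen with earlier results of these data known. All members and other dynein heavy chains are named, and of each further list of dynein partners the called genes, or, with none called, the 2 genes with the most testes counts. Of the long mRNAs the 3 with the most sperm counts are named. Prm1, Prm2, Tnp1, Star, Odad3, Dnali1, Dynll1, Dynlt2 and Dnaaf1 were named after their values were seen. Labels give no batch. Between replicates, chi-square divided by its degrees of freedom was 4.93 to 12.5 in sperm and 6.92 in testes, so none were merged. Alternatives were other scalings, count filters, DESeq2 1.42.0, a replicate block and leaving out each library. Promoter stretches are not transcripts, and no protein sequence was used here.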

Additional observations from a re-analysis of the deposited data

Results flagged for a closer look

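For 7 of the 11 heavy chain genes examined over the 4 sperm libraries, 1 library stood apart from the others by more than the 95% critical value of Dixon's ratio, which chance gives in about 1 in 20 groups of normally distributed values. That rate does not hold for shares built on so few counts, so these 7 cannot be read against it. Where only 1 library has a count, the ratio is 1 by construction, as for 4 of the 7. Sperm replicate 3 stood apart with 269 ppm of Dnah1 and 328 ppm of Dnah6, and sperm replicate 1 with 283 ppm of Dnah2. Sperm replicate 2, the deepest sperm library, was the only one with a count for Dnah8 (50.0 ppm), Dnah10 (60.0 ppm), Dnah17 (160 ppm) and Dnah7c (20.0 ppm).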

How the results depend on the processing

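The call of Dnah8 held in 6 of 12 alternatives, and its log2 fold change stayed between -8.77 and -3.82. Its adjusted p ranged from 0.00211 with DESeq2 to 0.432 with a replicate block. Over the libraries left out in turn, 0 to 1 members were lower, with 0 without sperm replicate 2, sperm replicate 4, testes replicate 1 or testes replicate 2. Likewise 16 to 396 of all genes were lower and 36 to 338 higher. Other axonemal heavy chains gave 0 to 1 lower, assembly factors 0 to 0 lower and 0 to 1 higher, and long mRNAs 0 to 13 lower and 0 to 8 higher. The summed share ratio ran from 0.364 to 0.589. Without a filter on low counts, which tests more genes, 0 members, 7 genes lower and 27 higher were called, and 0 in the other heavy chains, the assembly factors in both directions and the long mRNAs in both directions. With edgeR's own filter 205 genes, 1 other heavy chain, 0 assembly factors and 5 long mRNAs were lower. With TMM factors, which moved the median log2 fold change of all genes to -1.97, 2 members and 1 docking gene were lower, and 60 genes, 0 assembly factors and 0 long mRNAs were higher. Dnah7b then had an adjusted p of 0.0342 in edgeR's quasi-likelihood test. With the total of all transcripts 1 docking gene was lower. With DESeq2 (median -2.40) 158 genes were higher, and 1 other heavy chain, 1 assembly factor, Dync1h1 and 1 light or intermediate chain (1 each) were lower. DESeq2 gave no adjusted p for Dnah9, Dnaaf4 and Cfap298. These alternatives called 1739 genes lower (TMM), 1531 (all transcripts) and 871 (DESeq2).

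The replicate numbers shared by the groups did not pair the samples (correlation of deviations over genes -0.0191 for number 1 and -0.0482 for number 2). With a replicate block, in which sperm replicates 3 and 4 have no testes partner and carry no weight, 0 members, 103 genes, 0 other heavy chains, 0 assembly factors and 2 long mRNAs were lower and 163 genes higher.

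Signs turned for 4 genes, none of them called. In the order Dnah1, Dnah2, Dnah6 and Dnah7a, leaving out single libraries gave at most 1.07, 1.60, 2.85 and 0.89. Dnah1 was -0.94 with TMM, -0.69 with DESeq2, -1.99 without sperm replicate 3 and -2.53 with the block. Dnah2 was -1.09 without sperm replicate 1. Dnah6 was -1.39 without sperm replicate 3 and -1.11 with the block. Dnah7a was -0.33 with TMM, -0.90 without sperm replicate 4 and -0.98 with the block. The last changes were added after seeing the data. Without Dnah8 the summed ratio was 0.965, and at an unadjusted p under 0.05, 2 members were lower, against 30.6% of all genes. Except where a smaller set of genes or libraries is named, the cause of these shifts was not tested. Thinned to the smallest RefSeq total, testes replicates 1 and 2 had counts on 5.67 and 5.61 members. The members had between 7 and 32 counts in a sperm library, so each share rests on few counts.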
